A study of Mus musculus with 23 samples.

Results

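The genes described here encode 7 transcription factors known from the basal layer and the stem cells of the mammary gland: Trp63, Snai2, Id4, Mef2c, Egr2, Sox9 and Sox10. They were measured on 23 Affymetrix arrays of polyA RNA from purified mammary epithelial cells of female C57BL/6 mice, an inbred strain. Members were the probe sets whose only listed gene symbol was one of these 7. This gave 22 of the 45101 probe sets: 5 for Mef2c, 4 for Trp63, 3 each for Sox9, Sox10 and Id4, and 2 each for Snai2 and Egr2. All 7 genes were among the 15378 genes kept after a filter on low values, and 20 of their 22 probe sets passed it.

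The labels distinguish mammary epithelial stem cells (8 arrays), luminal progenitors (7 arrays) and mature luminal cells (8 arrays). Stem cells were taken from virgins of 3 and 9 weeks and at day 10 of pregnancy on 2 arrays each, and at day 16 and from retired breeders on 1 array each. Luminal progenitors came from both virgin ages on 2 arrays each, and from days 10 and 16 and retired breeders on 1 array each. Mature luminal cells were measured on 2 arrays each at 9 weeks and day 10, and on 1 array each at 3 weeks, days 16 and 19 and in retired breeders. Retired breeders are mice that have bred before, and parity and age cannot be told apart in them. The labels name no surface markers for the purification, and nothing in them says that the arrays of a group are separate animals or pools. The p-values thus cover only the variation among these samples, part or all of it possibly technical.

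The mammary epithelium has an inner luminal layer, which makes milk, and an outer layer of contractile basal cells, in which the stem cell preparations of the adult gland are usually found. The p63 protein, encoded by Trp63, keeps the identity of basal epithelial cells, and Slug, encoded by Snai2, represses epithelial junction genes and supports the stem cell state. SOX9 and SOX10 bind a shared DNA motif and are known from progenitor cells of the gland. ID4 lacks a DNA-binding domain and blocks basic helix-loop-helix partners. MEF2C drives muscle and endothelial gene programmes, and EGR2 is a zinc finger factor of the immediate early family that is best known from myelinating glia.

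Promoter sequence was matched in RefSeq (GRCm38.p6) for 3 of the genes, in 9 windows of the 250 bases before an annotated start. The Id4 window is shown because Id4 and Egr2 had similar profiles over the samples (r = 0.932 over 16 group means) and because it holds the letters GCGNGGGCG, the motif of the EGR family. It lies at chr13:48260866-48261115 on the + strand, and capitals mark both matches, which begin 141 and 114 bases before the start and read as the motif on the opposite strand.

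Id4: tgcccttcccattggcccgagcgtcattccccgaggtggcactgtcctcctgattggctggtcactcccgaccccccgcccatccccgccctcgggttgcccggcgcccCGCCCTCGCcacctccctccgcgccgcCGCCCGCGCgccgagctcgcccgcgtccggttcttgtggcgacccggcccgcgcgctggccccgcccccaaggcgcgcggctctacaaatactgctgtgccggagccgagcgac

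The window is 75.6% G and C. Of 32841 windows of the same length before mouse gene starts, 4.70% held this motif on either strand. A match of letters is a description and does not show binding.

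For Egr2, 4 of 5 windows held a CArG box, the motif of serum response factor, which acts on many immediate early genes. These were 2 places in the genome, since neighbouring starts share a site, and each is shown with 10 bases on either side and the box in capitals. The box was found in 1.47% of the 32841 windows on either strand. The first stretch is chr10:67537484-67537513 and the second chr10:67537787-67537816, both on the + strand, each with its box beginning 72 bases before a start.

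Egr2, first site: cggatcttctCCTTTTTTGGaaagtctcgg

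Egr2, second site: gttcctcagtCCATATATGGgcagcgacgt

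The Id4 window held no E-box (CANNTG, either strand, found in 66.2% of windows), and the 3 Mef2c windows held no MEF2 site (2.92% of windows).

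The deposited values are on a log2 scale, so a difference of 1 is a doubling, and levels are compared only within a probe set. Array medians lay between 4.51 and 5.47. The stem cell arrays carried the RNA of basal markers: the mean log2 level of Krt5, Krt14, Acta2, Myh11 and Oxtr was 9.41 to 12.88 there, 7.12 to 11.04 in luminal progenitors and 7.06 to 9.95 in mature luminal cells. These ranges overlapped, and 3 luminal arrays stood apart in Krt5 and Krt14. The mature luminal array titled replicate 1 at 9 weeks had Krt5 at 11.81 and Krt14 at 12.88, and the mature luminal array at 3 weeks had Krt5 at 11.17 and Krt14 at 12.77. The luminal progenitor array at day 16 had Krt5 at 10.53 and Krt14 at 12.67. The other mature luminal arrays had Krt5 between 5.67 and 9.30. The muscle genes of the list ranked the luminal arrays differently. The 9-week mature luminal array titled replicate 1 had Acta2 at 9.14, Myh11 at 4.27 and a mean of 9.13 over the 5 basal markers. The luminal progenitor array at day 10 had Krt5 at only 8.38, but Acta2 at 12.81 and a mean of 10.07. The 3-week mature luminal array also had the largest excess of 3′ over 5′ Gapdh signal (log2 5.16), a sign of degraded or truncated RNA. The stem cell array of retired breeders followed at 3.77, and the other 21 arrays lay between 0.87 and 2.72. The luminal keratins Krt8 and Krt18 were between 12.19 and 14.06 on all arrays, those of stem cells included. Between the luminal types 1 of 5 luminal progenitor markers was called, Itgb3, lower in mature luminal cells (-2.79 ± 0.41), and 3 of 10 fibroblast and stromal markers were lower there. The 5 markers of mature luminal cells were Esr1, Pgr, Foxa1 and the keratins Krt8 and Krt18, which were high on all arrays and raise the mean. This mean was 10.01 to 12.63 in luminal progenitors and 9.48 to 12.57 in mature luminal cells. Between these cell types 0 of 5 were called (also 0 at an unadjusted p under 0.05). Arrays of whole preparations cannot tell fewer cells of a type from less RNA per cell.

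Members were set against the background of all genes in each comparison. A gene was called at a limma adjusted p under 0.05 over the 15378 genes, and cell types were compared as averages over the 5 stages that have both. In mature luminal cells against stem cells, 4 of 7 members were lower and none was higher, against 6.78% of all genes lower. In luminal progenitors against stem cells, 2 of 7 were lower and none was higher, against 3.60% of all genes. Snai2 and Id4 passed in both, and Trp63 and Mef2c passed in mature luminal cells. Whether the difference from stem cells was itself different between the luminal types was tested directly: 0 of 7 members passed in mature luminal cells against luminal progenitors, where 0.124% of all genes were called. In that comparison 1 member and 726 genes had an unadjusted p under 0.05. With the replicate number of the array titles as a block, 5 of 7 members were lower in luminal progenitors (9.62% of all genes) and the same number in mature luminal cells (12.9% of all genes). The titles of 8 arrays carry no number. In this block they were placed with replicate 2, to which their profiles in these same data lay closer. Sox9 and Sox10 were not called between any pair of cell types, with or without that block over all arrays.

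**Figure D1:**
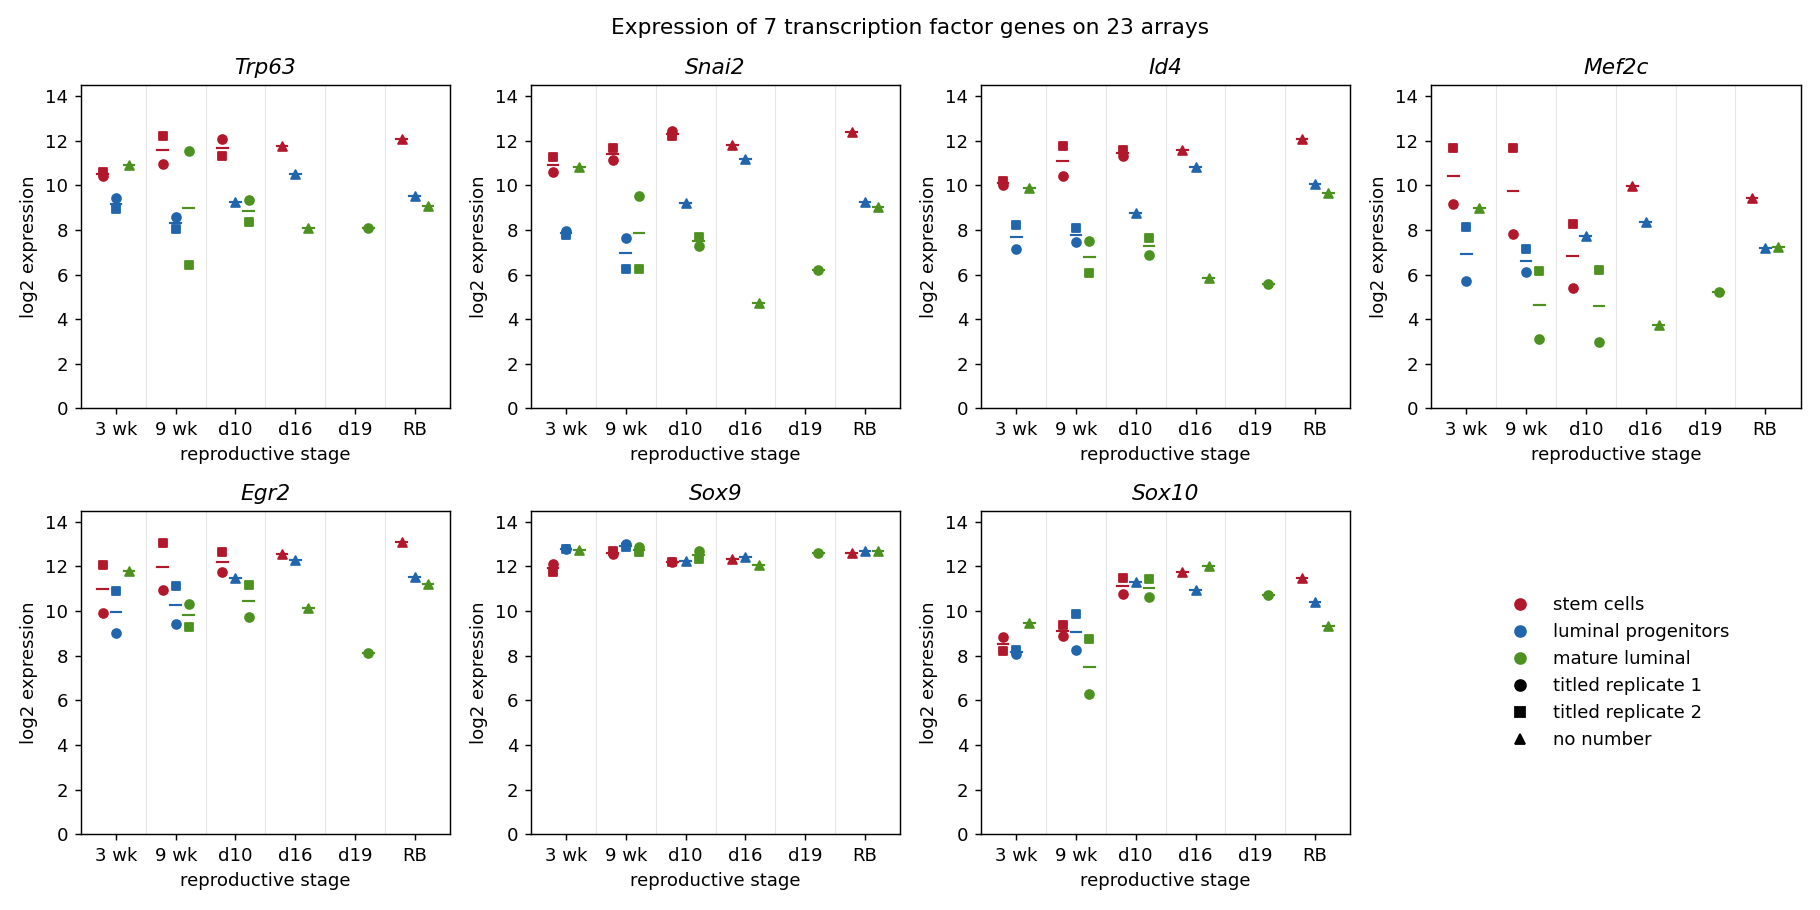
Deposited log2 level (y axis) of the 7 genes by reproductive stage (x axis: virgins of 3 and 9 weeks, days 10, 16 and 19 of pregnancy, retired breeders RB), with 1 point per array, colour for cell type, shape for the replicate number in the title and a short line at each group mean. Trp63, Snai2 and Id4 are high on every stem cell array, the Sox9 probe set plotted (1451538_at) stays between 11.74 and 13.00, and Sox10 is higher on all 9 pregnancy arrays (10.65 to 12.02) than on all 11 virgin arrays (6.28 to 9.86).

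Trp63 was read by 1 probe set well above the floor (1418158_at). The other 3 sets lay low: 1452027_a_at was below its array's median on 19 arrays, and 1451876_a_at and 1459581_at on all 23. Nothing in the files says which p63 isoforms the used set reads. On the 8 stem cell arrays Trp63 had a lowest log2 level of 10.43, a median of 11.54 and a highest of 12.23. Luminal progenitors ran from 8.06 through a median of 9.27 to 10.51, and mature luminal cells from 6.43 through 8.72 to 11.54. The groups overlapped through the 3 arrays that stood apart in Krt5 and Krt14. These had 10.51 at day 16 in luminal progenitors, and 10.91 at 3 weeks and 11.54 at 9 weeks in mature luminal cells.

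Averaged over stages, Trp63 was 5.09-fold lower in mature luminal than in stem cells (log2 -2.35 ± 0.64 SE, adjusted p = 0.0438). This call rested on the choice of arrays, since it was lost in 15 of 23 fits that left out 1 array (adjusted p up to 0.130). It was also lost with the mean of all 4 probe sets (-1.03 ± 0.39, adjusted p = 0.142), without a variance trend (adjusted p = 0.0705), in a fit of only the groups compared (adjusted p = 0.073) and with every probe set on its own (adjusted p = 0.0537). Within the arrays titled replicate 1 the difference was -0.77 ± 0.74 (adjusted p = 0.585), and within the other arrays -3.03 ± 0.62 (adjusted p = 0.00899). Without the 2 mature luminal arrays with the most Krt5, a setting chosen after seeing the data, the difference was -3.67 ± 0.35. Those 2 arrays also had the most Trp63 of the mature luminal arrays (11.54 and 10.91). The choice itself thus makes the difference larger, and it adds no separate support. In luminal progenitors the difference was -2.17 ± 0.64 and was not called (adjusted p = 0.0852), whereas it was called with the replicate block (-2.08 ± 0.56, adjusted p = 0.0264). Without those 2 mature luminal arrays, which enter only through the shared spread, the size was the same. That choice also breaks up the 9-week mature luminal pair, whose Trp63 standard deviation (3.61) was the largest of any group. At 5 of 5 stages luminal progenitors had less Trp63 than stem cells, with differences from -1.26 to -3.27. Mature luminal cells were lower at 4 of 5 stages, and 0.39 higher at 3 weeks.

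Genes known as p63 partners or targets gave the setting for this. Of 24 listed genes 20 were kept, and 10 of these were lower in luminal progenitors and 11 in mature luminal cells, with none higher. The shares of all genes lower were 3.60% and 6.78%. The median difference of the 20 was -1.35 and -1.28, against -0.04 and 0.03 over all genes. Nrg1, the ligand neuregulin, was lower by -4.19 ± 0.40 in mature luminal cells (adjusted p = 0.00031). Lama3, a chain of the basement membrane protein laminin-332, was lower by -2.84 ± 0.37 in mature luminal cells and -2.51 ± 0.37 in luminal progenitors. Jag2, a Notch ligand, was lower by -2.97 ± 0.40 and -2.75 ± 0.40, and the integrin chain Itga3 by -1.49 ± 0.21 and -1.78 ± 0.21 in the same order. Lama3 was also among the 3 genes whose 16 group means followed Trp63 most closely (r = 0.972), with Sdk2 (0.981) and Moxd1 (0.970). In pregnancy 3 of the 20 fell, against 3.36% of all genes. These were the growth factor receptor Fgfr2 (-2.98 ± 0.29, adjusted p = 0.000169), the hemidesmosome protein Dst (-1.41 ± 0.22) and the ligand Hbegf (-1.05 ± 0.22).

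Snai2 had a lowest log2 level of 10.58, a median of 11.75 and a highest of 12.44 on the stem cell arrays. Luminal progenitors ran from 6.27 through 7.94 to 11.17, and mature luminal cells from 4.71 through 7.50 to 10.83. Only 2 luminal arrays reached the stem cell range, the day 16 luminal progenitors at 11.17 and the 3-week mature luminal cells at 10.83. The 9-week mature luminal array titled replicate 1 stood at 9.54, and its replicate 2 at 6.23.

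Snai2 was 13.8-fold lower in mature luminal cells (log2 -3.78 ± 0.46, adjusted p = 0.000685) and 7.36-fold lower in luminal progenitors (-2.88 ± 0.46, adjusted p = 0.00829). Within the arrays titled replicate 1 these differences were -3.13 ± 0.76 and -3.57 ± 0.76 and not called (adjusted p = 0.0829 and 0.0578), and within the other arrays -4.17 ± 0.94 (adjusted p = 0.0141) and -3.13 ± 0.94 (adjusted p = 0.0687). At single stages the mature luminal difference ran from -0.09 at 3 weeks to -7.10 at day 16. The used probe set (1447643_x_at) carries the suffix x, which marks probes that may also match other transcripts. The second set, 1418673_at, gave -3.90 ± 0.55 and -3.10 ± 0.55 when every probe set was fitted on its own (adjusted p = 0.00161 and 0.0157). Snai2 did not pass between the luminal types (-0.90 ± 0.48). Without the 2 mature luminal arrays with the most Krt5 the difference was -2.28 ± 0.35. Those 2 arrays also had the most Snai2 of the mature luminal arrays, so the choice itself makes the difference more negative.

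The other factors of epithelial-mesenchymal transition followed in part. Of 10 kept, 5 were lower in mature luminal cells and 0 in luminal progenitors (1 with the block, and 1 at an unadjusted p under 0.05 without it). Without the block 6.78% and 3.60% of all genes were lower in the same order. Zeb1, a repressor of E-cadherin, was lower by -1.94 ± 0.34 in mature luminal cells, the homeobox gene Prrx1 by -3.48 ± 0.70, Twist1 by -2.86 ± 0.60 and Tcf4 by -1.01 ± 0.21. Prrx1 and Twist1 are also fibroblast genes, and of 10 markers of fibroblasts and stroma 7 were lower there, at a mean level of 3.98 to 7.20 against 7.76 to 9.29 in stem cells. Their part in the result was not tested. Of 12 epithelial genes that Snail factors are known to repress, 1 was higher in luminal progenitors and 2 in mature luminal cells, against 0.78% and 1.56% of all genes. These were the tight junction genes Cldn1 (2.39 ± 0.46 and 1.68 ± 0.46) and, in mature luminal cells, Cldn4 (2.04 ± 0.50). With the replicate block, 6 and 10 of the 12 were higher, against 4.81% and 6.71% of all genes. The profiles closest to Snai2 were those of Moxd1 (r = 0.978), the Notch ligand Dll1 (0.975) and Pdpn (0.968), and Trp63 and Snai2 were at r = 0.954 with each other, over 16 group means that share arrays.

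Id4 was read by 3 probe sets, and on the used one (1423259_at) the stem and mature luminal arrays did not overlap. Stem cell arrays had a lowest log2 level of 10.01, a median of 11.44 and a highest of 12.08, and mature luminal arrays ran from 5.57 through 7.20 to 9.88. Luminal progenitors ran from 7.15 through 8.21 to 10.84, and only the day 16 array at 10.84 and the retired breeder array at 10.08 reached the stem cell range.

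Id4 was 10.4-fold lower in mature luminal cells (log2 -3.38 ± 0.34, adjusted p = 0.000332), place 23 among all genes by p. In luminal progenitors it was 4.73-fold lower (-2.24 ± 0.34, adjusted p = 0.00675). Within the arrays titled replicate 1 both passed, at -3.60 ± 0.46 and -3.11 ± 0.46 (adjusted p = 0.0136 and 0.0283). Within the other arrays mature luminal cells passed at -3.63 ± 0.73 (adjusted p = 0.00813), and luminal progenitors did not at -2.26 ± 0.73 (adjusted p = 0.0881). At single stages the mature luminal difference ran from -0.23 at 3 weeks to -5.76 at day 16. That of luminal progenitors ran from -0.76 at day 16 to -3.32 at 9 weeks. Both other Id4 probe sets gave the same direction, but on each the 3-week mature luminal array reached the stem cell range: 11.77 on 1423260_at, where the lowest stem cell array had 9.29, and 9.12 on 1450928_at, where it had 9.08. In mature luminal cells they gave -3.20 ± 0.56 (1423260_at) and -3.86 ± 0.52 (1450928_at), and in luminal progenitors -1.96 ± 0.56, which was not called (adjusted p = 0.0914), and -2.75 ± 0.52. Between the luminal types Id4 differed by -1.14 ± 0.35, which did not pass (adjusted p = 0.491). Without the 2 mature luminal arrays with the most Krt5 it was -2.15 ± 0.38. Those arrays had Id4 at 9.88 at 3 weeks and at 7.49 at 9 weeks, where the other array had 6.08. The choice itself thus lowers the mature luminal mean.

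Among the 6 other Id genes and their helix-loop-helix partners, Id3 was lower in both luminal types (-1.36 ± 0.29 in luminal progenitors, -1.48 ± 0.29 in mature luminal cells). Id1 (-1.74 ± 0.45) and the Notch target Hey1 (-1.49 ± 0.36) were lower in mature luminal cells. The genes closest to Id4 over the 16 group means were the calcium channel subunit Cacna2d1 (r = 0.983), Rai2 (0.975) and the potassium channel Kcnq5 (0.972). Snai2 and Id4 stood at r = 0.958 with each other.

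**Figure D2:**
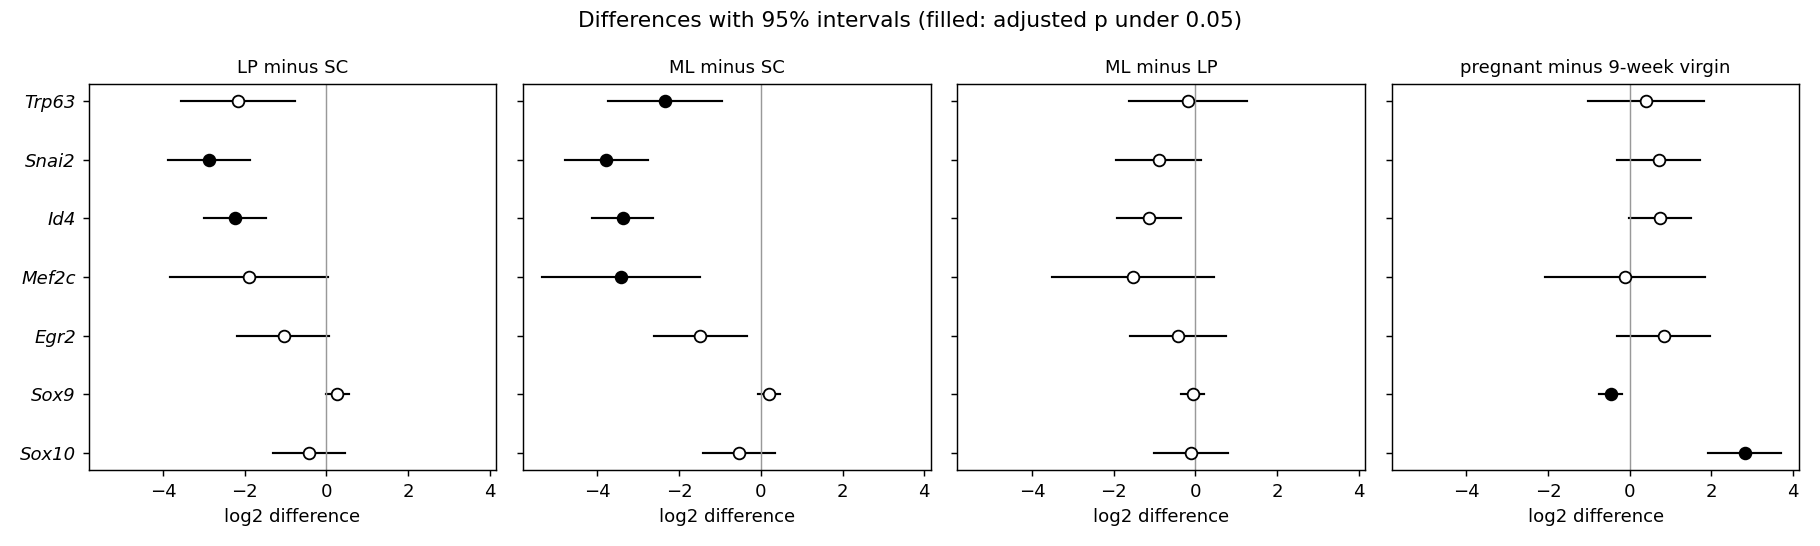
Log2 difference of each gene (point) with its 95% interval (line) from the model over all arrays, for 3 comparisons of cell types (SC stem cells, LP luminal progenitors, ML mature luminal cells) and for pregnancy against 9-week virgins, with filled points at an adjusted p under 0.05. Snai2 and Id4 are filled in both comparisons with stem cells, Sox10 lies at 2.81 in pregnancy, and the intervals of Mef2c are the widest and those of Sox9 the narrowest.

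Mef2c followed the same order on average, with far more spread. Stem cell arrays had a lowest log2 level of 5.38, a median of 9.29 and a highest of 11.66, luminal progenitors 5.70, 7.20 and 8.37, and mature luminal cells 2.97, 5.69 and 8.98. The ranges overlapped throughout. In stem cells the arrays titled replicates 1 and 2 had 9.15 and 11.66 at 3 weeks, 7.80 and 11.66 at 9 weeks and 5.38 and 8.27 at day 10. The unnumbered stem cell arrays had 9.96 at day 16 and 9.43 in retired breeders.

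Mef2c was higher on replicate 2 than on replicate 1 in 7 of 7 groups, by 1.04 to 3.86. No other member kept 1 direction in all 7: Egr2, Id4 and Sox10 were higher on replicate 2 in 6, Sox9 in 1, Trp63 in 2 and Snai2 in 3.

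Against stem cells Mef2c was 10.8-fold lower in mature luminal cells (log2 -3.43 ± 0.88, adjusted p = 0.0332), and 7 of 23 fits that left out 1 array lost the call (adjusted p up to 0.134). Within the arrays titled replicate 1 it was -3.86 ± 0.78 (adjusted p = 0.0516), and within the other arrays -3.73 ± 0.70 (adjusted p = 0.00564). With the block the difference was -3.71 ± 0.33 (adjusted p = 1.99e-05). In luminal progenitors it was -1.90 ± 0.88 and not called (adjusted p = 0.271), but -2.18 ± 0.33 with the block (adjusted p = 0.00123). Luminal progenitors had less Mef2c than stem cells at 4 of 5 stages, and 0.91 more at day 10. All 4 other Mef2c probe sets were lower in both luminal types, by -2.82 to -3.43 in mature luminal cells, where 1421027_a_at alone did not pass (-3.02 ± 0.91, adjusted p = 0.0794). In luminal progenitors none of the 4 passed, with differences of -1.93 to -2.56 (adjusted p from 0.0509 to 0.312).

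Mef2c is also an endothelial gene, so endothelial markers are given beside it. Their mean log2 level over 12 genes was 9.14 to 11.22 on the 4 virgin stem cell arrays, 6.14 to 6.87 on the 3 stem cell arrays of pregnancy and 8.39 in retired breeder stem cells. It was 5.22 to 7.87 in luminal progenitors and 4.86 to 8.01 in mature luminal cells. Of the 12 markers 5 were lower in luminal progenitors and 8 in mature luminal cells, against 3.60% and 6.78% of all genes. Among them were Esam (-1.87 ± 0.35 and -2.26 ± 0.35) and Tie1 (-1.91 ± 0.37 and -2.21 ± 0.37). Pecam1, the endothelial adhesion molecule, was 8.43 to 10.23 on virgin stem cell arrays and 4.44 to 5.37 in pregnancy, and none of the 12 was at 0 on any array. For leukocyte markers the mean of the 11 kept was 5.15 to 7.08 in stem cells, 4.13 to 8.45 in luminal progenitors and 3.24 to 8.87 in mature luminal cells. Against stem cells 0 of 11 were called in either luminal type. Like Mef2c, this mean was higher on replicate 2 in each group of 2 arrays, for example 6.98 against 4.05 in day 10 mature luminal cells. It was highest on the 3-week mature luminal array. The part of both marker lists in the Mef2c result was not tested.

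Within stem cells Mef2c was lower at day 10 than at 9 weeks on both numbered pairs, 5.38 against 7.80 and 8.27 against 11.66. The difference of pregnancy against 9 weeks was -1.34 ± 1.51 over all arrays (adjusted p = 0.767), -2.02 ± 0.56 with the block over all arrays (adjusted p = 0.0843) and -2.91 ± 0.59 with the block over numbered arrays alone (adjusted p = 0.0394), which leaves out day 16. In the same comparison the endothelial markers had a median of -2.78, with 0 of 12 called (11 at an unadjusted p under 0.05) and 7 called lower with the block over all arrays.

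**Figure D3:**
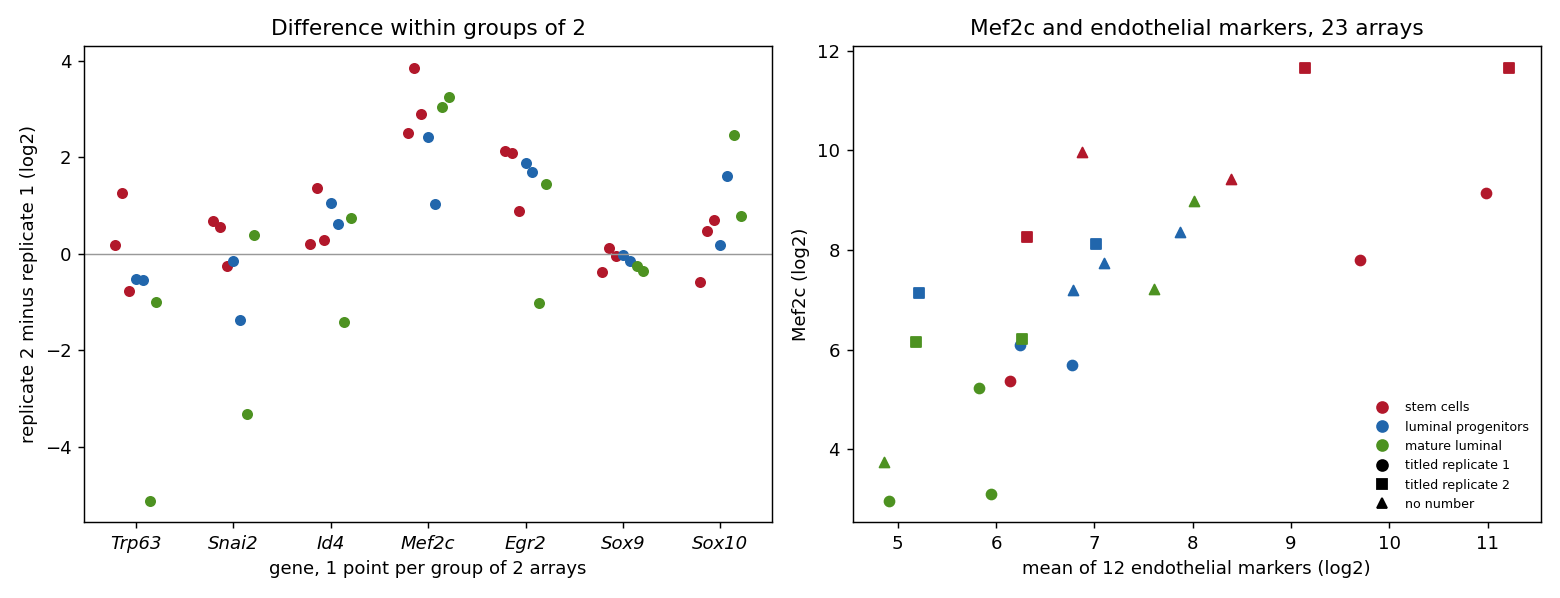
Left, log2 difference between the arrays titled replicates 2 and 1 (y axis) in each of the 7 groups of 2 arrays, by gene. Right, Mef2c log2 level (y axis) against the mean log2 level of 12 endothelial markers (x axis) on 23 arrays, with colour for cell type and shape for the replicate number. All 7 Mef2c points on the left lie above 0, and on the right the 4 virgin stem cell arrays lie farthest to the right, at 9.14 to 11.22.

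Of 12 listed Mef2 and SRF partner genes 9 were kept, and 0 were called in luminal progenitors or in mature luminal cells (3 and 4 lower with the block, and 4 in each at an unadjusted p under 0.05 without it). Mef2a, another MEF2 factor, was between 8.51 and 11.08 on all arrays. Of 12 smooth muscle contractile genes, which MEF2 and SRF factors drive in muscle, 8 were lower in luminal progenitors and 10 in mature luminal cells. Over all genes 3.60% and 6.78% were lower. In pregnancy 4 of the 12 were higher, against 3.77% of all genes, while Mef2c was not called (-0.12 ± 0.89). Actg2, a smooth muscle actin, was lower by -5.64 ± 0.53 in mature luminal cells and Tagln by -3.50 ± 0.41. The genes with profiles closest to Mef2c were Dpysl2 (r = 0.953), the elastic fibre gene Fbln5 (0.939) and Ptprm (0.937).

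Egr2 was high on all arrays. Stem cell arrays had a lowest log2 level of 9.93, a median of 12.31 and a highest of 13.09, luminal progenitors 9.02, 11.12 and 12.28, and mature luminal cells 8.12, 10.23 and 11.81. The 3 ranges overlapped. The lowest value was the day 19 mature luminal array, and the highest the retired breeder stem cell array.

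Egr2 was not called in either luminal type: the differences from stem cells were -1.05 ± 0.52 in luminal progenitors (adjusted p = 0.301) and -1.48 ± 0.52 in mature luminal cells (adjusted p = 0.109). With the replicate block both passed, at -1.18 ± 0.32 (adjusted p = 0.0285) and -1.61 ± 0.32 (adjusted p = 0.00413). The second probe set, 1427683_at, gave -1.07 ± 0.48 and -1.40 ± 0.48. At 5 of 5 stages luminal progenitors had less Egr2 than stem cells, with differences from -0.28 to -1.71. Mature luminal cells had less at 4 of 5 stages, by up to -2.43, and 0.81 more at 3 weeks.

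Of the 8 other Egr and Nab genes, Egr4 alone was called, lower in both luminal types (-3.0 ± 0.44 in luminal progenitors and -3.03 ± 0.44 in mature luminal cells) and higher in pregnancy (1.86 ± 0.45). The immediate early genes Fos (13.08 to 13.80) and Egr1 (12.67 to 13.91) were near the top of the scale on all arrays, and Egr3 lay between 9.19 and 12.46. Bmp7, a growth factor, had the profile closest to Egr2 (r = 0.969), followed by Purg (0.961) and Irak1bp1 (0.958).

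Reproductive stage was compared next, with pregnancy as the mean of days 10 and 16 and equal weight for the 3 cell types. Against 9-week virgins 1 member of 7 was higher (Sox10), where 3.77% of all genes were, and 1 was lower (Sox9), where 3.36% were. The 9-week virgin arrays are shared by all comparisons of stages. The other 5 members were not called: Egr2 differed by 0.83 ± 0.52, Id4 by 0.74 ± 0.35, Snai2 by 0.71 ± 0.47, Trp63 by 0.39 ± 0.65 and Mef2c by -0.12 ± 0.89. In luminal progenitors the arrays of days 10 and 16 lay above both 9-week arrays for each of these 5. Snai2 had 9.20 and 11.17 there against 7.63 and 6.27. The basal marker mean was also higher there (10.07 to 11.04 against 7.12 to 8.06). The day 16 mature luminal array differed from the 9-week mean by -3.17 for Snai2, -0.95 for Id4 and -0.89 for Trp63. It differed by -0.88 for Mef2c and 0.32 for Egr2. Luminal progenitors alone were not tested.

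Sox10 was lower in virgins than in pregnancy in all 3 cell types. Stem cells had 8.82 and 8.23 at 3 weeks, 8.89 and 9.36 at 9 weeks, 10.78 and 11.49 at day 10, 11.77 at day 16 and 11.47 in retired breeders. Luminal progenitors had 8.08 and 8.26 at 3 weeks, 8.25 and 9.86 at 9 weeks, 11.29 at day 10, 10.96 at day 16 and 10.40 in retired breeders. Mature luminal cells had 9.47 at 3 weeks, 6.28 and 8.74 at 9 weeks, 10.65 and 11.43 at day 10, 12.02 at day 16, 10.70 at day 19 and 9.32 in retired breeders. All 9 pregnancy arrays lay above all 11 virgin arrays. The retired breeder arrays of stem cells and luminal progenitors also lay above every virgin array, and that of mature luminal cells lay within the virgin range.

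Sox10 was 6.99-fold higher in pregnancy (log2 2.81 ± 0.41, 95% interval 1.91 to 3.70, adjusted p = 0.00269). The other probe sets gave 2.99 ± 0.50 (1424985_a_at, adjusted p = 0.00783) and 3.03 ± 0.72 (1425369_a_at, adjusted p = 0.0345). Within the arrays titled replicate 1 the difference was 3.03 ± 0.56 (adjusted p = 0.0394), and within the other arrays 2.17 ± 0.44 (adjusted p = 0.0224). By cell type the step from 9 weeks to day 10 was 2.01 in stem cells, 2.23 in luminal progenitors and 3.53 in mature luminal cells. The effect in mature luminal cells was 1.69 ± 0.98 above that in stem cells, a difference that did not pass (adjusted p = 0.938, 95% interval -0.45 to 3.83), and was 0.46 without the 9-week mature luminal array titled replicate 1 and 2.92 without replicate 2. In stem cells alone the effect was 2.33 ± 0.69 and not called (adjusted p = 0.243, or 0.0604 with the block). In retired breeders Sox10 was 1.83 ± 0.52 above 9-week virgins and not called (adjusted p = 0.594).

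Sox10 is also a marker of Schwann cells, so their other markers are given beside it. Of 13 Schwann and glial markers 7 were kept, and 0 of 7 were called in pregnancy (1 at an unadjusted p under 0.05), with a median difference of 0.03 against 0.10 over all genes. Erbb3, a receptor that luminal cells also express, differed by -0.48 ± 0.37 and Mbp, a myelin protein, by -0.93 ± 0.33. Mag was at 0 on 10 arrays, and Mag, Foxd3 and Fabp7 were below the array median on all 23. The summed level of the list, as its mean, was 6.09 to 7.70 in stem cells, 5.74 to 7.90 in luminal progenitors and 5.50 to 7.88 in mature luminal cells. Basal markers rose in pregnancy in part: Acta2 by 1.76 ± 0.37 and Myh11 by 2.64 ± 0.68, 2 of 5 called. In luminal progenitors the mean of the basal list was 7.12 to 8.06 at 9 weeks and 10.07 to 11.04 at days 10 and 16. In mature luminal cells it was 7.06 to 9.13 and 8.48 to 9.95, and in stem cells 10.61 to 12.55 and 11.79 to 12.88. In stem cells alone 0 of 5 were called (also 0 at an unadjusted p under 0.05). Of 5 mature luminal markers 3 were lower, the hormone receptors Pgr (-3.68 ± 0.52) and Esr1 (-2.37 ± 0.29) and the factor Foxa1 (-2.62 ± 0.27). The mean of these 5 was 12.25 to 12.57 at 9 weeks and 9.48 to 11.05 at days 10 and 16 in mature luminal cells, 11.88 to 12.18 and 10.01 to 10.83 in luminal progenitors, and 10.82 to 11.79 and 9.45 to 9.98 in stem cells. Of 5 luminal progenitor markers 1 was higher, the factor Elf5 (3.38 ± 0.53), and 4 had an unadjusted p under 0.05. Of 10 fibroblast and stromal markers 2 were higher, Cd248 (2.8 ± 0.61) and Postn (1.84 ± 0.48), with a median of 1.35. Their mean in luminal progenitors was 6.13 to 6.46 at 9 weeks and 9.62 to 10.07 in pregnancy, while in stem cells it was 7.81 to 8.05 and 7.76 to 8.73, and in mature luminal cells 4.08 to 4.99 and 4.01 to 6.23. Their part in the Sox10 result was not tested. The genes with profiles closest to Sox10 were C2cd4b (r = 0.950), Shf (0.933) and Syt9 (0.928).

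On its used probe set Sox9 was high on all arrays. That set (1451538_at) ran from 11.74 to 12.68 in stem cells, from 12.23 to 13.00 in luminal progenitors and from 12.08 to 12.87 in mature luminal cells, close to the highest value of the table (14.28). At 3 weeks stem cells had 12.12 and 11.74, below luminal progenitors at 12.80 and 12.78 and mature luminal cells at 12.72. At 9 weeks stem cells had 12.56 and 12.68, luminal progenitors 13.00 and 12.86, and mature luminal cells 12.87 and 12.63. At day 10 they had 12.22 and 12.18, 12.23, and 12.68 and 12.32, and at day 16 12.34, 12.41 and 12.08 in the same order. In stem cells and luminal progenitors all pregnancy arrays lay below the 9-week arrays, and in mature luminal cells the groups overlapped.

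The decrease of Sox9 in pregnancy was small (log2 -0.47 ± 0.13, 1.39-fold, adjusted p = 0.0455). It lost the call in 16 of 23 fits that left out 1 array (adjusted p 0.0441 to 0.128 over all 23), and with quantile normalization, for example, it was -0.33 ± 0.12 (adjusted p = 0.118). Within the arrays titled replicate 1 it was -0.24 ± 0.17 (adjusted p = 0.577), and within the other arrays -0.46 ± 0.19 (adjusted p = 0.164). A second probe set, 1424950_at, which lies lower on the scale and ranged from 7.17 to 11.17, gave -1.58 ± 0.50 when fitted on its own (adjusted p = 0.0935), and the third, 1433889_at, was below the array median on 22 arrays. Between cell types Sox9 was called only with the block over numbered arrays, where luminal progenitors were 0.58 ± 0.14 above stem cells (adjusted p = 0.0147). The closest profiles to Sox9 were those of Pfkfb2 (r = 0.894), Cdkl2 (0.862) and Grk3 (0.861). Sox9 and Sox10 had r = -0.453 with each other.

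Of 15 other Sox genes 12 were kept, and 0 of 12 were called in pregnancy (also 0 at an unadjusted p under 0.05), with a median of 0.03. Sox17 and Sox18 were counted among the endothelial markers and are not in this list. Sox8, which with Sox9 and Sox10 makes up the SoxE group, was between 3.84 and 7.18 on all arrays. Between cell types 1 of 12 was called: Sox7, an endothelial factor, was lower in mature luminal than in stem cells (-2.18 ± 0.49).

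**Figure D4:**
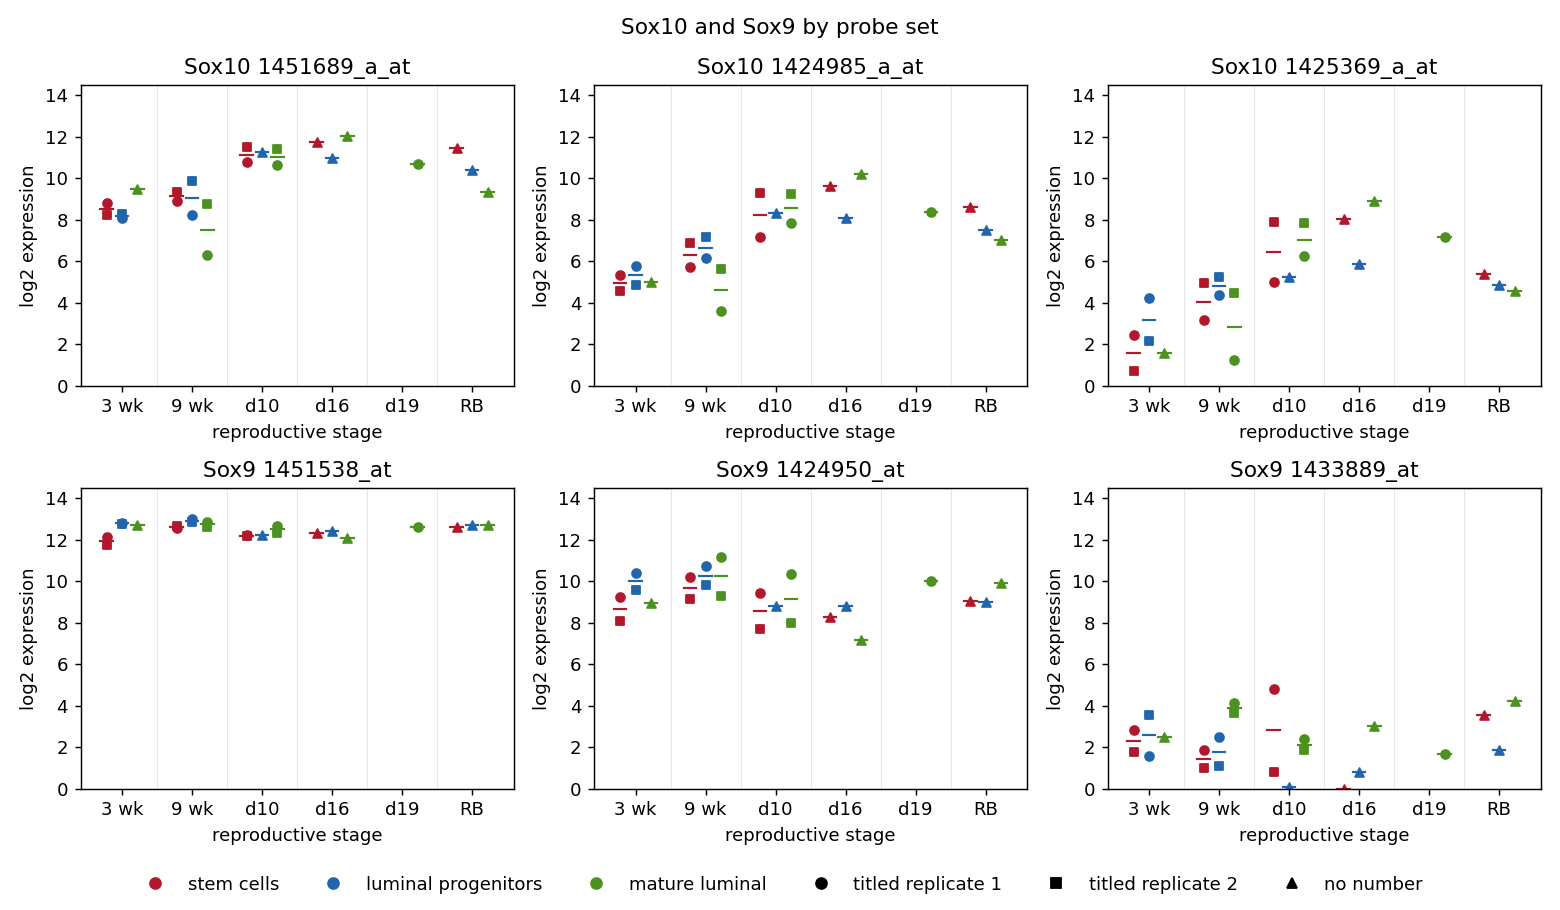
Deposited log2 level (y axis) of the 3 probe sets each of Sox10 (upper row) and Sox9 (lower row) by reproductive stage (x axis), with 1 point per array, colour for cell type, shape for the replicate number and a short line at each group mean. All 3 Sox10 sets have higher group means in pregnancy than at 9 weeks in each cell type. On 1425369_a_at the day 10 and the 9-week replicate 2 luminal progenitor arrays are both at 5.22. Among the Sox9 sets 1451538_at stays between 11.74 and 13.00 while 1424950_at ranges from 7.17 to 11.17.

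No member was called in virgins of 3 weeks against 9 weeks (0 of 7, against 0.176% of all genes called in either direction). At an unadjusted p under 0.05 it was 0 members and 1674 genes. Mef2c differed by 1.77 ± 1.01 and Snai2 by 1.13 ± 0.53, but by 0.48 and 0.22 without the 3-week mature luminal array. For Trp63, Id4, Egr2 and Sox10 the sign of this difference turned when the same array was left out.

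In retired breeders against 9-week virgins 0 of 7 members were called, where 0.0065% of all genes were. At an unadjusted p under 0.05 there were 3 members and 1113 genes. The largest difference was that of Id4. Its level was 12.08 in retired breeder stem cells against 10.41 and 11.77 at 9 weeks, 10.08 against 7.46 and 8.07 in luminal progenitors, and 9.64 against 7.49 and 6.08 in mature luminal cells. Each retired breeder array lay above both 9-week arrays of its cell type. The difference was 2.05 ± 0.44 (unadjusted p = 0.000616, place 12 of all genes, adjusted p = 0.592). The mean of the basal markers was 12.02 against 10.61 and 12.55 in these stem cells, 9.41 against 8.06 and 7.12 in luminal progenitors, and 9.20 against 9.13 and 7.06 in mature luminal cells. Markers of fibroblasts and stroma had a mean of 9.29 against 7.81 and 8.05, 9.14 against 6.13 and 6.46, and 7.02 against 4.99 and 4.08 in the same order of cell types. Over these 10 markers the median difference was 2.28 against 0.21 over all genes, with 0 of 10 called and 7 at an unadjusted p under 0.05. The retired breeder stem cell array is also the one with a Gapdh 3′ excess of 3.77. Their part in the Id4 difference was not tested. Snai2 differed by 1.49 ± 0.60, Egr2 by 1.26 ± 0.67 and Trp63 by 0.59 ± 0.83.

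In stem cells alone, pregnancy against 9-week virgins gave 0 of 7 calls (0.260% of all genes), with 1 member and 1854 genes at an unadjusted p under 0.05. Trp63 differed by 0.12 ± 1.10, Snai2 by 0.66 ± 0.79 and Id4 by 0.43 ± 0.59, with 95% intervals of -2.27 to 2.52, -1.07 to 2.39 and -0.85 to 1.71. Whether pregnancy acted differently in mature luminal and stem cells was tested as an interaction, and 0 of 7 members were called (0.013% of all genes), with 0 members and 901 genes at an unadjusted p under 0.05. For Snai2 the interaction was -2.44 ± 1.12, but -0.79 without the 9-week mature luminal array titled replicate 1 and -4.10 without replicate 2. Snai2 was 12.44 and 12.19 at day 10 and 11.81 at day 16 in stem cells against 11.12 and 11.68 at 9 weeks, and 7.30, 7.70 and 4.71 in mature luminal cells against 9.54 and 6.23.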

How the data were processed

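The authors deposited log2 expression values for 45101 probe sets on 23 arrays, which were used as deposited. The probe summary and array scaling are not given in the sources used here. Precision is limited by the number of arrays. Probe sets were named through the platform annotation (34945 with 1 symbol), each gene by its set with the highest mean. Genes above the 40th percentile of an array on at least 2 arrays were kept (15378 of 18193).

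One mean per group (16 groups, 9 of 1 array, assumed to vary like the 7 of 2) was fitted with limma 3.58.1 in R 4.3.3 (lmFit, eBayes with trend, 7 residual and 4.74 prior degrees of freedom), two-sided, with Benjamini-Hochberg adjustment over the kept genes. The error printed after ± is a standard error. The fit was also run on simulated normal data without any replicate effect. That run cannot show how the fit behaves with the pairing of arrays given below.

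Replicate numbers in the titles paired the arrays: deviations from the group means correlated above 0.1 in 21 of 21 pairs of groups (0.303 to 0.682). All 8 unnumbered arrays lay closer to replicate 2 and were placed there in the block.

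Members, gene lists, comparisons and alternatives were chosen with earlier results of these data known. All 7 members are named, up to 4 genes per list and comparison with the smallest p, and the 3 genes most correlated with each member over group means. Single genes given as markers of cell types, stress or Sox8 and Mef2a were named outside that rule. Alternatives changed the normalization, filter, floor, probe set rule, variance trend, samples, replicate block and single arrays. The setting without the 2 mature luminal arrays with the most Krt5 was added after seeing the data.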

Additional observations from a re-analysis of the deposited data

Results flagged for a closer look

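Day 19 of pregnancy was measured on 1 mature luminal array and enters no comparison. Sox10 stood at log2 10.7 there, above both 9-week mature luminal arrays (6.28 and 8.74). No test was made on this single array.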

How the results depend on the processing

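In mature luminal against stem cells, 4 members were lower over all arrays, 2 without a variance trend and 1 within the arrays titled replicate 1. In luminal progenitors against stem cells the count was 2 over all arrays, 4 with the replicate block over numbered arrays (with Sox9 higher), 5 with the block over all arrays, and 1 each within the replicate 1 arrays and within the other arrays. Between the luminal types it was 0 over all arrays. It moved only without the 2 mature luminal arrays with the most Krt5, a choice that itself lowers the mature luminal mean. In pregnancy it was 2 over all arrays and with the block over all arrays, and 1 (Sox10) with quantile normalization, no filter, values under the array median raised to it, the mean of all probe sets, every probe set on its own, no variance trend, only the groups compared, the block over numbered arrays, within either set of arrays and without the 2 Krt5-rich arrays. In stem cells in pregnancy the count was 0, or 1 (Mef2c) with the block over numbered arrays. Leaving out single arrays gave 2 to 5 in mature luminal cells, 2 to 3 in luminal progenitors, 1 to 2 in pregnancy, and 0 in the other comparisons. The replicate block over all arrays changed no call besides those given in the text.

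Sox10 in pregnancy kept its call in all alternatives (log2 2.17 within the arrays not titled replicate 1 to 3.03 within those titled replicate 1), and 2.40 to 3.22 without single arrays. Snai2 and Id4 against stem cells kept theirs in mature luminal cells without any single array (adjusted p up to 0.00702 and 0.00366) and in luminal progenitors (up to 0.0232 and 0.0223). Quantile normalization moved the median of all genes from -0.04 to 0.08 in luminal progenitors against stem cells, from 0.03 to 0.11 in mature luminal cells and from 0.11 to -0.06 at 3 weeks. In luminal progenitors 120 genes were called higher and 553 lower with the deposited values, and 225 and 505 with quantile normalization.

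Directions turned only in differences that were not called. At 3 weeks against 9 weeks, the block over numbered arrays and each setting without the 3-week mature luminal array gave -0.12 for Trp63, -0.74 for Sox10, -0.53 for Id4 and -0.65 for Egr2. Within the replicate 1 arrays this difference was -0.33 for Trp63, -0.62 for Snai2, -0.56 for Id4 and -0.91 for Egr2. Sox10 was -0.04 with quantile normalization, -0.80 with the mean of all probe sets and -0.67 within the other arrays. Between the luminal types the mean of all probe sets gave 0.16 for Trp63, 0.46 for Sox9 and 0.00 for Sox10. The block over numbered arrays gave 0.65 for Trp63 and 0.94 for Snai2, the replicate 1 arrays 1.39 for Trp63, 0.44 for Snai2 and 0.23 for Egr2, and the other arrays 0.04 for Sox10. In pregnancy Trp63 was -0.02 with the block over numbered arrays and -0.25 within replicate 1, Snai2 -0.23 within replicate 1 and Mef2c 0.20 with the mean of all probe sets. In retired breeders Trp63 was -0.46 and Sox9 0.01 with the mean of all probe sets, Sox9 0.05 with quantile normalization, and Mef2c -0.40 with the block over all arrays and -0.37 within the other arrays. The pregnancy effect in mature luminal minus stem cells without the 2 Krt5-rich arrays was 1.92 for Trp63, 0.01 for Sox9, 0.05 for Id4 and -0.64 for Mef2c, and with the block over numbered arrays 0.17 for Sox9 and 0.14 for Id4. The cause was not tested in any of these.

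Leaving out single arrays gave the following ranges for differences whose sign turned. At 3 weeks they were -0.29 to 1.42 for Trp63, -0.74 to 0.57 for Sox10, -0.53 to 0.91 for Id4 and -0.65 to 0.59 for Egr2. Between the luminal types they were -0.69 to 0.38 for Trp63, -1.87 to 0.49 for Snai2, -0.15 to 0.00 for Sox9, -0.45 to 0.14 for Sox10 and -1.0 to 0.00 for Egr2. In pregnancy they were -0.46 to 1.24 for Trp63 and -0.76 to 0.52 for Mef2c, in retired breeders -0.26 to 1.44 for Trp63, and in pregnant stem cells -0.51 to 0.75 for Trp63, -0.25 to 1.11 for Id4, -3.27 to 0.59 for Mef2c and -0.66 to 1.44 for Egr2. The effect in mature luminal minus stem cells ran from -3.19 to 1.92 for Trp63, -0.23 to 0.10 for Sox9, -1.36 to 0.06 for Id4, -1.05 to 2.81 for Mef2c and -0.95 to 1.14 for Egr2.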
